A study of Mus musculus with 7 samples.

Results

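The genes described here are 10 genes of the oncofetal liver programme and its repressors: *Afp*, *Gpc3*, *Igdcc4*, *Cd24a*, *Igf2bp3* and *Lin28b*, which are active in fetal liver or its progenitor cells, *Zhx2*, *Zfhx3* and *Zbtb20*, which encode repressors of *Afp*, and *Alb*, the adult neighbour of *Afp*. They were found on the array by their gene names, and 12 probes carried one of these names, of 55681 probes and 35715 gene names in all. The choice was made with the differences between the genotypes known, so the differences of these 10 genes are given as a description with no test. Whole liver RNA came from 7 untreated C57BL/6J mice that were 4 weeks old, and each animal was read on its own Agilent 1-colour array. The *Rbpj*-/- group held 3 *AlfpCre*+ mice with the floxed *Rbpj* allele, labelled Rbpj -/-_N3, Rbpj -/-_N5 and Rbpj -/-_2866, and their livers were labelled as cholestatic. The *Rbpj*+/+ group held 4 *AlfpCre*- mice that carried the floxed allele too, labelled Rbpj +/+_1155 and Rbpj +/+_1156, then Rbpj +/+_1024 and lastly Rbpj +/+_991, and their livers were labelled as free of cholestasis. *AlfpCre* is driven by albumin and alpha-fetoprotein control elements and acts in the epithelial lineage of the liver, so that blood, endothelial and stromal cells in the tissue keep *Rbpj*. Where 4 values and then 3 values are given for a gene, they follow these orders of animals.

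*Afp* and *Alb* stem from an ancestral gene of the albumin family and lie side by side on the same chromosome. In fetal liver both are strongly transcribed by hepatoblasts, and after birth *Afp* is silenced while *Alb* stays on. ZHX2, ZFHX3 (also called ATBF1) and ZBTB20 are zinc finger or homeobox proteins known to act as repressors in this postnatal silencing, and *Afp* can return in regenerating, injured or malignant liver, where *Gpc3* and *Igf2bp3* are known as tumour antigens.

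In the reference genome (RefSeq, GRCm38.p6) *Alb* spans chr5:90460870-90476602 and *Afp* chr5:90490714-90508907, with *Afm* at chr5:90518949-90553544 next to *Afp* and *Gc* at chr5:89417511-89457898 on the other side of *Alb*. The stretch of 250 bases before the start of each of the first 2 genes is shown. With the scaling used here these neighbours differed in opposite directions, and the difference of *Alb* depended on that scaling. Capitals mark TATAAA, the letters of the TATA box, searched on both strands and found in the *Afp* window only. The windows are chr5:90490464-90490713 for *Afp* and chr5:90460620-90460869 for *Alb*, both on the plus strand and written 5′ to 3′.
Afp upstream window: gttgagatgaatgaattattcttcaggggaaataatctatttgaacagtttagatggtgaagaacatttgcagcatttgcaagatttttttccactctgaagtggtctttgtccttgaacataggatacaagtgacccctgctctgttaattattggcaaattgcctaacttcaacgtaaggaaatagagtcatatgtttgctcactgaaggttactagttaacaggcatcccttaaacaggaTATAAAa
Alb upstream window: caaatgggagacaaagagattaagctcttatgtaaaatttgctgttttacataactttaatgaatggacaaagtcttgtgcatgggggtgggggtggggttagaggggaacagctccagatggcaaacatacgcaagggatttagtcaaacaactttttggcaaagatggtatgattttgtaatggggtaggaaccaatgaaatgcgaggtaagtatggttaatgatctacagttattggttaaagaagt
The TATA letters lay 7 to 2 bases before the start in *Afp*. Of 32817 windows of the same length before mouse genes, 12.4% held the TATA letters, on either strand. TGGGAA, the core letters of the RBPJ motif, lay 173 to 168 bases before the start of *Zbtb20* and in 21.6% of all windows. GGAATG, the core letters of the TEAD motif, were in no window of a gene described here and in 12.6% of all windows. These matches describe letters only. Windows were at hand for 8 of the 10 genes, and *Zhx2* and *Cd24a* were those without one.

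Levels are given as normalized log2 intensity, which is the log2 signal of the probe minus the 75th percentile of its array, so that 0 is the level of that percentile and a difference of 1 is a 2-fold change. A level was read against the other arrays for the same probe. The within-array differences and the summed levels of markers are the exceptions, since they combine probes. Of the 10 genes, 8 passed the filter on dim probes, which asked for a signal well above background on every array of at least 1 genotype, and 7 of these were well above background on all 7 arrays. The remaining gene, *Igdcc4*, passed only through the *Rbpj*-/- arrays, so that it had to differ. At an adjusted p below 0.1 in limma, 5 of the 8 genes were higher in *Rbpj*-/- liver, 2 were lower and 1 did not pass. *Igdcc4* is among the 5, and it is included in the count without overlap and in the median given below. Among all 18770 genes tested, 34.2% passed in either direction, 14.6% as higher and 19.6% as lower. The ranges of the genotypes did not overlap for 5 of the 8 genes and for 36.5% of all genes tested. Since the genes were picked on this contrast, nothing is read from these counts. The median log2 difference was 1.28 over the 8 genes and -0.13 over all genes tested.

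**Figure D1:**
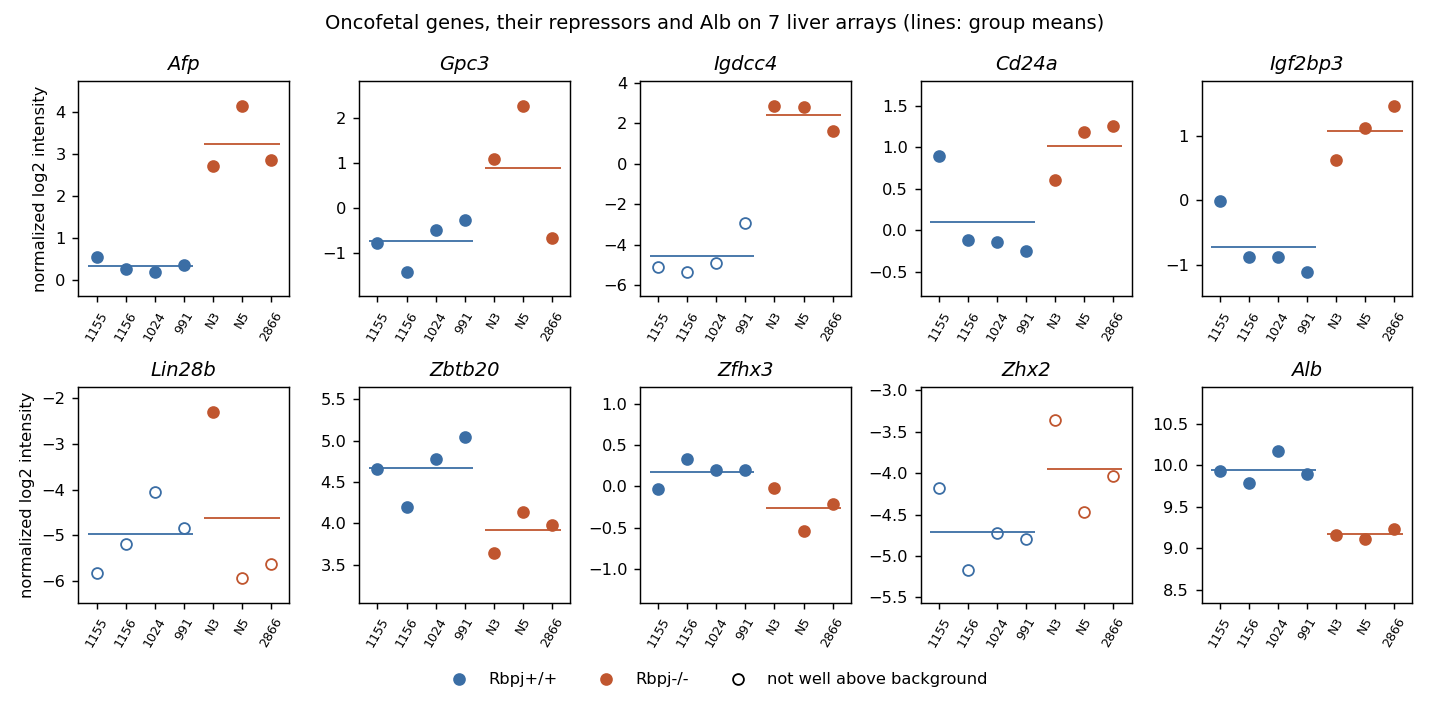
Normalized log2 intensity (y axis, own range in each panel) of each of the 10 genes on the 7 arrays (x axis, with the endings of the sample labels), with lines at the group means and open circles where the signal was not well above background. *Lin28b* and *Gpc3* are shown by the brighter of their probes. For *Afp*, *Igdcc4* and *Igf2bp3* all 3 *Rbpj*-/- arrays lay above all 4 *Rbpj*+/+ arrays, for *Zbtb20* and *Alb* below them, and *Zhx2* was open on all arrays.

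*Afp*, which encodes the main serum protein of the fetus, was higher in all 3 *Rbpj*-/- livers. Its normalized log2 level was 0.54, 0.27, 0.20 and 0.37 in *Rbpj*+/+ and 2.72, 4.16 and 2.86 in *Rbpj*-/- liver. The lowest *Rbpj*-/- liver thus lay well above the highest *Rbpj*+/+ liver, and Rbpj -/-_N5 stood highest. The group means were 0.35 ± 0.15 (SD, n = 4) and 3.24 ± 0.79 (SD, n = 3), a log2 difference of 2.90 (SE 0.34) or 7.44-fold. Before scaling, the intensity was 149, 103, 66.0 and 96.6 in *Rbpj*+/+ and 936, 2312 and 855 in *Rbpj*-/- liver, so the groups stood in the same order before scaling. The *Afp* probe (chr5:90937781-90937840, mm9) was spotted 10 times on each array, and 9 of these spots were kept on array Rbpj +/+_1024 and all 10 on the others. The SD between spots of 1 array was 0.03 to 0.11 on the log2 scale, which covers the measurement on an array and not the spread between mice. *Afp* was called in 17 of 17 settings of the processing, the percentile shift and its alternatives, with a log2 difference of 2.44 to 3.62.

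*Gpc3* encodes glypican 3, a heparan sulphate proteoglycan of the cell surface that is found in fetal liver and hepatocellular carcinoma. Its level was -0.78, -1.41, -0.49 and -0.27 in *Rbpj*+/+ and 1.10, 2.27 and -0.67 in *Rbpj*-/- liver, read by the probe at chrX:49625740-49625799 (mm9). Only Rbpj -/-_N3 and Rbpj -/-_N5 were high, whereas Rbpj -/-_2866 lay among the *Rbpj*+/+ mice, 0.06 above their mean. The means of -0.74 ± 0.50 (SD, n = 4) and 0.90 ± 1.48 (SD, n = 3) gave a log2 difference of 1.63 (SE 0.60) or 3.1-fold, and the groups overlapped. *Gpc3* was called in 8 of 17 settings, with log2 differences from 0.95 to 2.42. Liver Rbpj -/-_2866 was thus high for *Afp* and not for *Gpc3*. The within-array difference of *Afp* minus *Gpc3* was 3.53 in Rbpj -/-_2866, 1.62 in Rbpj -/-_N3 and 1.89 in Rbpj -/-_N5, and 0.64 to 1.68 in *Rbpj*+/+ mice. A second probe, which carries the name *Gpc3* through a cDNA clone (chrX:49740892-49740951, mm9), was not well above background on any array.

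*Igdcc4* encodes a cell surface protein of the immunoglobulin superfamily, also known as NOPE, which marks fetal liver progenitors. On the *Rbpj*+/+ arrays the probe (chr9:64985645-64985704, mm9) was not well above background, with intensities of 2.94, 2.11, 1.90 and 9.84. On the *Rbpj*-/- arrays the intensities were 1040, 921 and 362. This was the widest separation among the 10 genes, and the *Rbpj*+/+ levels are bounds only. The bound was the higher of the lowest detected signal of each *Rbpj*+/+ array and the probe's own signal there. Against it, *Igdcc4* was at least 53.0-fold higher in *Rbpj*-/- liver under the percentile shift. Its log2 difference was 7.01 under the percentile shift and 3.24 with normexp background correction, so the bound depends on the background correction. The number of settings that called *Igdcc4* is not given, since it had to differ. It is included in the counts over the 8 genes.

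*Igf2bp3* and *Cd24a* complete the genes that were higher. *Igf2bp3*, an RNA-binding protein of fetal tissues and a known let-7 target, had levels of -0.01, -0.88, -0.87 and -1.10 in *Rbpj*+/+ and 0.63, 1.12 and 1.47 in *Rbpj*-/- liver (chr6:49035710-49035769, mm9). The groups did not overlap, and Rbpj +/+_1155 was the highest *Rbpj*+/+ mouse. The means were -0.72 ± 0.48 (SD, n = 4) and 1.07 ± 0.42 (SD, n = 3), a log2 difference of 1.79 (SE 0.31) or 3.45-fold, called in 17 of 17 settings. *Cd24a*, a surface glycoprotein of progenitor and biliary cells that leukocytes express too, had levels of 0.89, -0.12, -0.14 and -0.26 in *Rbpj*+/+ and 0.60, 1.18 and 1.26 in *Rbpj*-/- liver (chr10:43303706-43303765, mm9). Here Rbpj +/+_1155 lay above Rbpj -/-_N3, and the other 3 *Rbpj*+/+ mice lay close together below all *Rbpj*-/- mice. The means were 0.09 ± 0.54 (SD, n = 4) and 1.01 ± 0.36 (SD, n = 3), a log2 difference of 0.92 (SE 0.32) or 1.89-fold, called in 10 of 17 settings.

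*Lin28b*, which blocks the maturation of let-7 miRNAs in fetal tissues, was near the floor of the array and was not tested. The probe at chr10:45140412-45140471 (mm9, minus strand) was well above background only on Rbpj -/-_N3, with an intensity of 28.8 against 1.80 to 3.47 on the other 6 arrays. The probe at chr10:45096468-45096527 was not well above background on any array. Rbpj -/-_N3 was also the array with the most probes well above background, and the part of this in the *Lin28b* reading was not tested. The 60 bases of the first of these probes are given because this single reading rests on them, and those of *Alb* (chr5:90901598-90901657, plus strand) because its difference depended on the scaling, as given with its values. Both are written as on the array with no bases in capitals, and both have 1 reading frame free of stop codons. No annotation of mm9 was used, so exons and untranslated regions are not assigned to the other probes.
Lin28b probe: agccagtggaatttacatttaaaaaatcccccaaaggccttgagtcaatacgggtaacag
Alb probe: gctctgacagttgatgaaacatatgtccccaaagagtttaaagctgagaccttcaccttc

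Of the genes for repressors of *Afp*, *Zhx2* could not be compared. Its probe (chr15:57670417-57670476, mm9) was well above background on 0 of 7 arrays, with intensities of 2.17 to 5.67 in *Rbpj*+/+ and 5.87 to 13.9 in *Rbpj*-/- liver, so no fold is given. *Zhx2* is known as the locus behind the differences of postnatal *Afp* between mouse strains, and these arrays give no reading of its transcript.

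*Zbtb20*, the zinc finger repressor that is abundant in adult hepatocytes, was lower in *Rbpj*-/- liver. Its level was 4.66, 4.19, 4.77 and 5.04 in *Rbpj*+/+ and 3.65, 4.13 and 3.98 in *Rbpj*-/- liver (chr16:43619030-43619089, mm9). The groups did not overlap, but the gap between Rbpj +/+_1156 and Rbpj -/-_N5 was small. The means of 4.67 ± 0.35 (SD, n = 4) and 3.92 ± 0.25 (SD, n = 3) gave a log2 difference of -0.74 (SE 0.24), 1.68-fold lower, called in 11 of 17 settings. Without any scaling between arrays the difference was -0.02, since the intensities were 1565 to 2594 in *Rbpj*+/+ and 1788 to 2278 in *Rbpj*-/- liver.

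*Zfhx3*, the large zinc finger and homeobox factor that binds an AT-rich element of *Afp*, did not pass the threshold in any of 17 settings. Its level was -0.04, 0.33, 0.19 and 0.20 in *Rbpj*+/+ and -0.02, -0.54 and -0.21 in *Rbpj*-/- liver (chr8:111485354-111485413, mm9). Rbpj -/-_N3 lay just above Rbpj +/+_1155, so the groups overlapped. The means were 0.17 ± 0.15 (SD, n = 4) and -0.26 ± 0.26 (SD, n = 3), with a log2 difference of -0.43 (SE 0.20). Without scaling the difference was 0.30.

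*Alb*, the main serum protein of adult hepatocytes, was lower after scaling. Its level was 9.93, 9.79, 10.17 and 9.89 in *Rbpj*+/+ and 9.17, 9.11 and 9.23 in *Rbpj*-/- liver. The groups did not overlap, and the *Rbpj*-/- mice lay close together. The means of 9.95 ± 0.16 (SD, n = 4) and 9.17 ± 0.06 (SD, n = 3) gave a log2 difference of -0.78 (SE 0.18), 1.71-fold lower, called in 13 of 17 settings. The intensities as deposited overlapped, with 66330 to 100251 in *Rbpj*+/+ and 70785 to 81831 in *Rbpj*-/- liver, and no spot was saturated. The log2 difference was -0.05 without scaling, -0.10 after quantile normalization and -0.09 in the authors' series matrix, and *Alb* was not called in these settings. The 75th percentile of the signal was 57.5 to 103 on the *Rbpj*+/+ arrays and 118 to 143 on the *Rbpj*-/- arrays, so that the percentile shift moved the median of all genes from 0.60 without scaling to -0.13. The differences of *Alb* and *Zbtb20* are therefore relative to the other transcripts on the array. In whole liver, fewer cells of a type and less RNA per cell cannot be told apart.

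**Figure D2:**
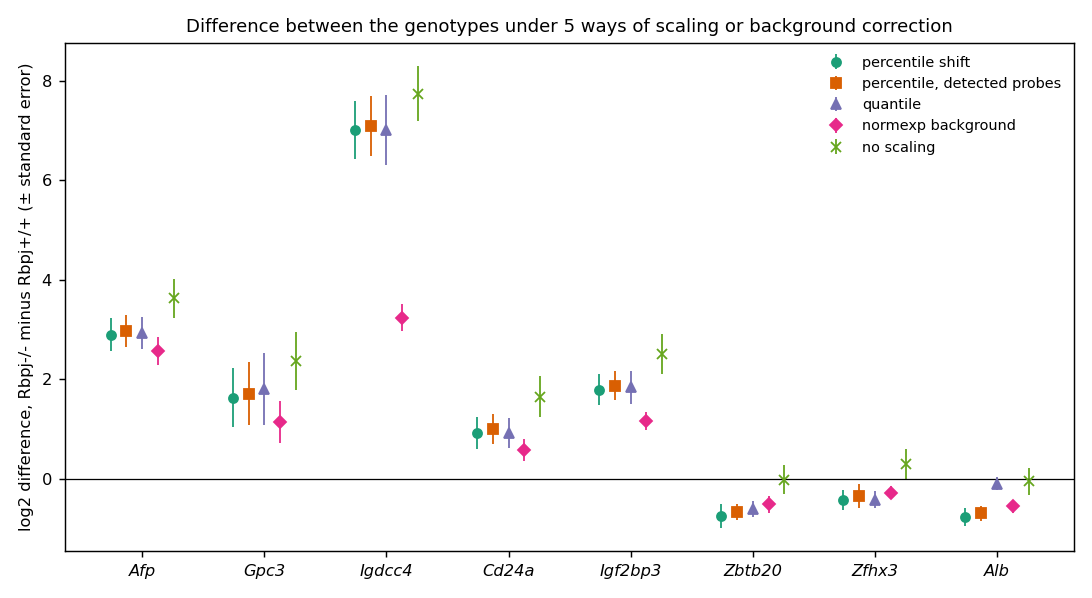
Log2 difference between the genotypes (y axis, *Rbpj*-/- minus *Rbpj*+/+, with bars for the standard error) of the 8 genes tested (x axis) under the percentile shift, 3 other ways of scaling and 1 other background correction. *Afp* stayed between 2.57 and 3.62, whereas *Alb* ranged from -0.78 to -0.05 and *Zfhx3* crossed 0.

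A difference between 2 probes of the same array does not depend on the scaling between arrays. On the log2 scale *Afp* minus *Alb* had a mean of -9.60 ± 0.26 (SD, n = 4) for *Rbpj*+/+ mice and a mean of -5.93 ± 0.84 (SD, n = 3) for *Rbpj*-/- mice. This within-array difference was higher by 3.67 in *Rbpj*-/- mice, and the groups did not overlap. The probes lie 36124 bases apart in mm9. Without scaling *Afp* differed by 3.62 and *Alb* by -0.05, so the within-array difference does not show a fall of *Alb*. Opposite directions of these neighbours were seen under the percentile shift. *Zbtb20* minus *Alb* was -5.28 ± 0.31 (SD, n = 4) and -5.25 ± 0.27 (SD, n = 3), a shift of 0.03 that was smaller than the SD between mice. *Zfhx3* minus *Alb* was higher by 0.35, and *Afp* minus *Zbtb20* by 3.64. These are descriptions, since the genes were chosen on this contrast.

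**Figure D3:**
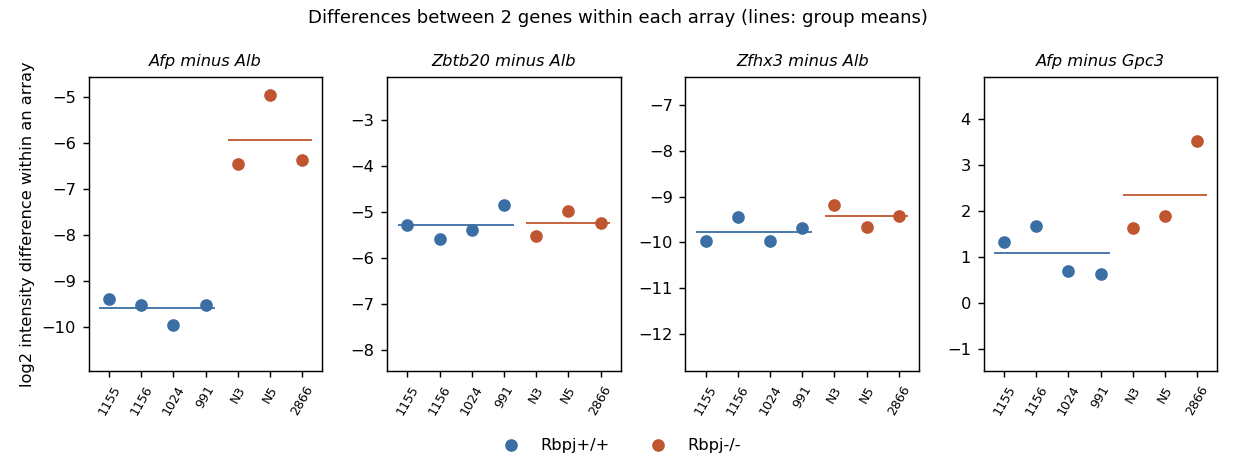
Difference of log2 intensity between 2 genes on the same array (y axis, own offset in each panel) on each of the 7 arrays (x axis), with lines at the group means. *Afp* minus *Alb* separated the genotypes by 3.67, *Zbtb20* minus *Alb* shifted by 0.03, and *Afp* minus *Gpc3* was highest in Rbpj -/-_2866 at 3.53.

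The genes whose levels followed *Afp* most closely over the 7 arrays, of 16531 genes measured on all arrays, were *Lig1* (Pearson r = 0.9965), *Smoc2* (0.9944) and *B930041F14Rik* (0.9927). *Lig1* encodes DNA ligase 1 of replication, and *Smoc2* a secreted matrix protein. Like *Afp*, all 3 were highest in Rbpj -/-_N5. For *Gpc3* they were *Slc39a6* (0.9871), *Ctps* (0.987) and *Sorbs2* (0.9868), which encode a zinc transporter, the CTP synthase and an adaptor protein of the cytoskeleton. Their levels in Rbpj -/-_2866, like that of *Gpc3*, were within the range of the *Rbpj*+/+ mice. These correlations describe 7 points in 2 groups, and no gene was matched to *Zhx2*. Since the genes were picked by their correlation, their likeness in Rbpj -/-_N5 and Rbpj -/-_2866 follows from the choice.

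In a list of 26 other genes of fetal liver, liver progenitors and the Lin28 and let-7 axis, 18 were tested, 12 rose, 3 fell and 3 did not pass the threshold. Of all genes tested, 14.6% rose and 19.6% fell. These 26 genes too were chosen with earlier results of these data known, so nothing is read from the counts. The ranges of the genotypes did not overlap for 13 of the 18 genes, against 36.5% of all genes, and the median log2 difference was 1.37. Without scaling 14 of the 18 genes were called higher and 0 lower. The 3 largest changes were those of *H19*, *Spink3* and *Scd2*. *H19*, the imprinted long non-coding RNA of fetal liver, had levels of 0.99, -0.57, -0.72 and 5.10 in *Rbpj*+/+ and 8.06, 8.51 and 9.36 in *Rbpj*-/- liver. It rose by 7.44 (SE 1.24) on the log2 scale (limma, adjusted p = 0.00489), although mouse Rbpj +/+_991 stood far above its group. *Spink3*, a secreted trypsin inhibitor, rose by 6.26 (SE 0.51, limma, adjusted p = 0.000301). *Scd2*, the stearoyl-CoA desaturase of fetal liver, rose by 5.76 (SE 0.51, limma, adjusted p = 0.000437). In its group Rbpj +/+_991 was the highest mouse for *H19*, *Spink3* (2.16) and *Scd2* (1.23).

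The other 9 genes that rose were *Tff3*, *Golm1*, *Prom1*, *Peg3*, *Mest*, *Sox4*, *Sox9*, *Igf2bp2* and *Plagl1*, with log2 differences from 3.32 for *Tff3* to 0.70 for *Plagl1*. They include the Golgi protein GOLM1, the progenitor marker PROM1 and the imprinted genes *Peg3*, *Mest* and *Plagl1*. *Peg3* was well above background on only 2 of the 4 *Rbpj*+/+ arrays, so it was tested only through the *Rbpj*-/- arrays. The genes that fell were *Igdcc3* (log2 difference -0.82, SE 0.28, limma, adjusted p = 0.0644), *Sall4* (-0.80, SE 0.32, limma, adjusted p = 0.0975) and *Lin28a* (-0.74, SE 0.20, limma, adjusted p = 0.0298). Without scaling these 3 differences were -0.09, -0.08 and -0.02, and the genes were called in 9, 5 and 12 of 17 settings. *Hmga1* (0.54), *Mdk* (0.21) and *Arid3b* (-0.71) did not pass. The 8 genes not tested were *Igf2*, *Dlk1*, *Igf2bp1*, *Hmga2*, *Epcam*, *Trim71*, *Mycn* and *Plag1*. *Igf2*, the imprinted neighbour of *H19*, was well above background on no array, and *Dlk1*, a surface marker of hepatoblasts, on 0 of 4 *Rbpj*+/+ and 2 of 3 *Rbpj*-/- arrays.

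Genes whose hepatic level is known to follow *Zhx2* numbered 7 in the list, and all were tested although *Zhx2* itself was not. *H19*, *Scd2* and *Lpl* rose, *Elovl3*, *Cyp4a12a* and *Mup20* fell, and *Cyp2a4* did not pass, with a median log2 difference of 0.63. The shares over all genes tested were 14.6% for a rise and 19.6% for a fall. *Lpl*, the lipoprotein lipase that adult liver silences, rose by 2.16 (SE 0.29, limma, adjusted p = 0.00208). *Elovl3*, a fatty acid elongase, was well above background on 4 of 4 *Rbpj*+/+ and 0 of 3 *Rbpj*-/- arrays. It was at least 294-fold lower under the percentile shift, but its log2 difference was -5.28 with normexp background correction. It passed the filter only through the *Rbpj*+/+ arrays, so that it had to differ and no p is given. *Cyp4a12a*, a fatty acid hydroxylase, had a log2 difference of -8.50 (SE 0.44, limma, adjusted p = 6e-05). *Mup20*, a major urinary protein, had a log2 difference of -1.36 (SE 0.21, limma, adjusted p = 0.00381). *Cyp2a4*, a steroid hydroxylase, had a log2 difference of 0.63 (SE 0.36, limma, adjusted p = 0.23). *Mup20*, *Cyp2a4* and *Cyp4a12a* have close copies in the genome that the probes may read too. *Elovl3*, *Cyp4a12a* and *Mup20* are also known as male-biased genes. The Y-linked *Ddx3y* and *Eif2s3y* were well above background on 7 of 7 arrays, while 1 probe of *Xist* was so on 1 array and the other probe on 0 arrays. The list was drawn up with the differences known.

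Among paralogues of the genes described here, 11 of 15 were tested, 1 rose, 6 fell and 4 did not pass, with a median log2 difference of -0.56. Over all genes tested, 14.6% rose and 19.6% fell. Without scaling 2 were called higher and 0 lower, so the calls of these falls depended on the scaling. Of the genes that fell, only *Gc* had a positive difference in that setting. The differences of *Afm*, *Gpc1*, *Zfhx2*, *Igdcc3* and *Lin28a* stayed negative but were not called. Within the albumin family, *Afm*, the vitamin E binding protein next to *Afp*, fell by 1.12 (SE 0.31) on the log2 scale (limma, adjusted p = 0.0323). *Gc*, the vitamin D binding protein, fell by 0.56 (SE 0.19, limma, adjusted p = 0.0648). *Afp* was thus the only one of the 4 albumin family genes that was higher under the percentile shift, while without scaling the difference of *Gc* turned to 0.16. Among the glypicans, *Gpc1* fell by 1.05 (SE 0.20, limma, adjusted p = 0.0082), whereas *Gpc4*, the neighbour of *Gpc3* on the X chromosome, had a log2 difference of -0.37 (SE 0.26, limma, adjusted p = 0.327). *Gpc2*, *Gpc5* and *Gpc6* were not tested.

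Of the paralogues of the repressor genes, *Zfhx2* fell and the other 3 did not pass. *Zhx1* had a log2 difference of 0.40 (SE 0.30) and *Zhx3* of -0.34 (SE 0.20), with limma adjusted p values of 0.354 and 0.234. *Zfhx2* had a difference of -1.26 (SE 0.45) and *Zfhx4* of -0.29 (SE 0.23, limma, adjusted p = 0.39). *Zfhx2* was well above background on 2 of 3 *Rbpj*-/- arrays only. It was thus tested only through the *Rbpj*+/+ arrays, and no p is given. It was called in 9 of 16 settings. In the IGF2BP family, *Igf2bp2* rose by 1.25 (SE 0.36, limma, adjusted p = 0.0363) beside *Igf2bp3*, and *Igf2bp1* was well above background on no array. *Lin28a* and *Igdcc3*, the paralogues of *Lin28b* and *Igdcc4*, were those that fell in the list of fetal genes.

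**Figure D4:**
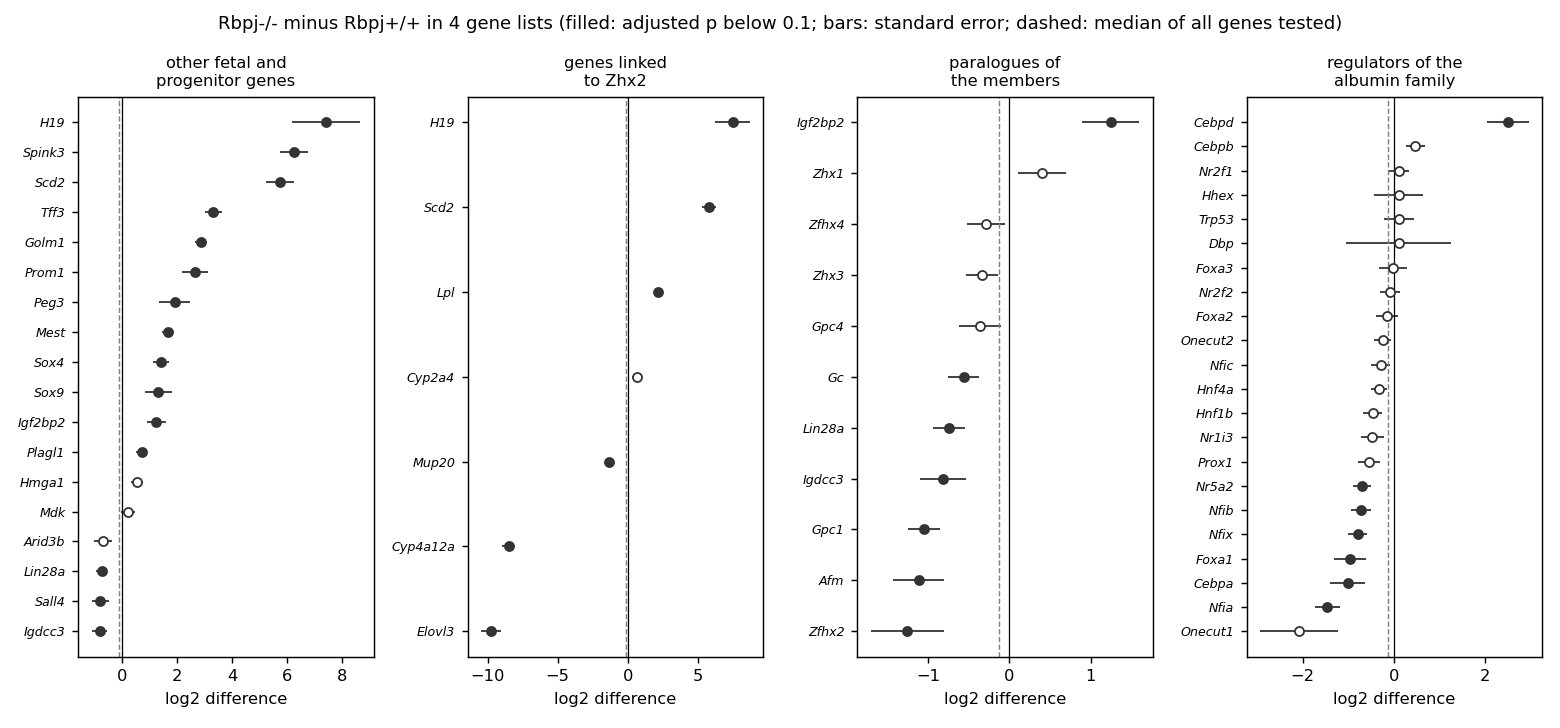
Log2 difference between the genotypes (x axis, *Rbpj*-/- minus *Rbpj*+/+, with bars for the standard error) of the tested genes of 4 lists (1 regulator is not shown), with filled points at an adjusted p below 0.1 in limma and a dashed line at the median of all genes tested. *H19*, *Spink3* and *Scd2* lie at 5.76 and above, *Cyp4a12a* and *Elovl3* at -8.50 and below, and most regulators of the albumin family between -1 and 1.

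Transcription factors known to act at *Afp* and *Alb* were 23 genes, all tested, of which 1 rose, 6 fell and 16 did not pass, with a median log2 difference of -0.32. The 7 calls among 23 genes lie near the 34.2% of all genes tested that were called. Without scaling 3 were called higher and 1 lower. *Cebpd*, a C/EBP factor of the acute phase response, rose by 2.51 (SE 0.46, limma, adjusted p = 0.00715). The largest falls were those of *Nfia* (-1.46, SE 0.27, limma, adjusted p = 0.00755), *Cebpa* (-1.01, SE 0.39, limma, adjusted p = 0.0877) and *Foxa1* (-0.97, SE 0.35, limma, adjusted p = 0.0766). *Nfix* (-0.79), *Nfib* (-0.72) and *Nr5a2* (-0.70) fell as well, although the differences of *Nfib* and *Nr5a2* turned positive without scaling. *Cebpa* was called in only 5 of 17 settings, from -1.55 to -0.29, and its level in Rbpj -/-_2866 (4.95) lay within the *Rbpj*+/+ range of 4.63 to 5.07. *Hnf4a*, a nuclear receptor of hepatocyte identity, had a log2 difference of -0.32 (limma, adjusted p = 0.216). *Trp53*, another known repressor of *Afp*, had a log2 difference of 0.10 (SE 0.33, limma, adjusted p = 0.842).

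The same arrays gave these readings for the labels and for the cells in the tissue. Beside the counts of markers, 14.6% of all genes tested rose and 19.6% fell. The differences and summed levels here are under the percentile shift. That shift moved the median difference of all genes from 0.60 without scaling to -0.13. Falls are therefore relative to the other transcripts on the array, as for *Alb*, and the markers without scaling are not given. The mean level of *Rbpj* was 0.60 ± 0.34 (SD, n = 4) for the *Rbpj*+/+ mice and -0.54 ± 0.22 (SD, n = 3) for the *Rbpj*-/- mice (chr5:54048503-54048562, mm9), a fall of 1.13 on the log2 scale (SE 0.24, limma, adjusted p = 0.0115) with no overlap after scaling. Before scaling the intensities overlapped, with 72.3 to 200 in *Rbpj*+/+ and 75.6 to 112 in *Rbpj*-/- liver. The probe may lie outside the deleted part, which is not stated. A dimmer second probe named *Rbpj*, placed at chr6:46479373-46479432 (mm9), overlapped, with levels of -2.74 to -0.73 in *Rbpj*+/+ and -4.51 to -2.22 in *Rbpj*-/- liver. Of 15 hepatocyte markers, all tested, 0 rose and 7 fell, by most in *Cyp2e1*, *Apob* and *Apoa1*. Their summed level, in units of the 75th percentile, was 3493 to 4877 in *Rbpj*+/+ and 2572 to 3225 in *Rbpj*-/- liver. Of 8 tested cholangiocyte markers 4 rose, namely *Cldn7*, *Krt23*, *Spp1* and *Sox9*, with summed levels of 5.42 to 8.31 and 14.0 to 20.5. The defining biliary keratins *Krt7* (log2 difference -0.45) and *Krt19* (0.25) did not pass, and *Epcam* was among the 2 markers that were not tested. Of 9 tested proliferation markers 9 rose, with summed levels of 5.46 to 21.9 and 44.1 to 92.2, but *Top2a* and *Bub1* were tested only through the *Rbpj*-/- arrays, since just 1 of 4 *Rbpj*+/+ arrays detected them. Of 8 tested neutrophil markers 3 rose (*Retnlg*, *S100a8* and *S100a9*) and 1 fell (*Elane*), with summed levels of 6.33 to 25.4 and 34.0 to 71.1. *Retnlg* was tested only through the *Rbpj*-/- arrays, since 3 of 4 *Rbpj*+/+ arrays detected it. Of 6 tested B cell markers 4 fell (among them *Ms4a1*, *Cd79a* and *Cd79b*), of which 3 were tested only through the *Rbpj*+/+ arrays, with summed levels of 2.74 to 5.64 and 1.5 to 2.5, and of 5 tested erythroid markers 2 fell (*Alas2* and *Ermap*), with summed levels of 275 to 497 and 455 to 499.9. Mouse Rbpj +/+_1155, which had the highest levels of *Cd24a* and *Igf2bp3* in its group, also had the highest summed levels of the proliferation (21.9) and neutrophil (25.4) markers. The part of these cells in the differences of *Cd24a*, *Igf2bp3* and the other genes was not tested.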

How the data were processed

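Whole liver RNA of 7 mice was labelled with 1 dye and hybridised to 7 arrays of 1 slide, with the *Rbpj*+/+ samples in row 1 and the *Rbpj*-/- samples in row 2, so that row and genotype cannot be told apart. The deposited intensity of each spot is the background-subtracted and detrended signal that the authors obtained with Agilent Feature Extraction 10.7.3.1 (submitters' processing notes), without scaling between arrays. The deposited series matrix holds log2 values that the authors made from the same arrays, and it was used as an alternative only. The number of arrays limits the precision, and 41.1% to 64.9% of probes were well above background on an array.

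Spots flagged as non-uniform or population outliers were dropped, the log2 signals of repeated spots were averaged, and each array was shifted by its 75th percentile. A probe was kept if, in 1 genotype or both, all arrays flagged it as positive, significant and well above background, which left 24547 probes of 18770 genes. The genotypes were compared on these probes with limma 3.58.1 (R 4.3.3) at a Benjamini-Hochberg adjusted p below 0.1. Limma took the place of the shrinkage t of the study. Where several probes of a gene were kept, the brightest one stood for it. The steps were tested on simulated data. Tables and figures were made in Python 3.11.15 with pandas 2.3.3, numpy 2.4.6 and matplotlib 3.10.9.

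The 10 genes and the lists (fetal and progenitor genes, genes linked to *Zhx2*, paralogues, regulators of the albumin family, and markers of hepatocytes, cholangiocytes, B cells, neutrophils, erythroid cells and proliferation) were chosen with earlier results of these data known. Named are all 10 genes, *Rbpj*, every tested paralogue, the 3 called genes with the largest change in each direction of every other list, and the 3 genes most correlated with *Afp* and *Gpc3*. Other genes were named after their values were seen, and the results of single genes that the lists count are in part not reported here. Alternatives were normexp background correction (offset 50), quantile normalization, the percentile taken over detected probes, no scaling, no filter on dim probes, detection on all 7 arrays, the series matrix, the mean over the probes of a gene, a threshold of 0.05 and each animal left out. Leaving out Rbpj +/+_1156 and Rbpj -/-_N3 together was added after seeing the data. Upstream windows are from RefSeq (GRCm38.p6), and probe positions are those of the array design (mm9).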

Additional observations from a re-analysis of the deposited data

Results flagged for a closer look

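In the *Rbpj*+/+ group of 4 mice, 4 of 62 genes of the report had 1 mouse whose gap to the nearest other mouse took up most of the range of the group. Chance gives such a value in about 1 in 20 groups. *Cd24a* was highest in Rbpj +/+_1155, with a normalized log2 level of 0.89 against -0.12 in the next mouse and a ratio of gap to range of 0.879. Mouse Rbpj +/+_1156, whose array had the most detected probes of its group, was lowest for *Gpc4* (0.63 against 1.43, ratio 0.843) and for *Zfhx4* (-0.31 against 0.30, ratio 0.832). *Foxa1* was highest in Rbpj +/+_1024 (3.66 against 2.49, ratio 0.8292).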

How the results depend on the processing

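Of the 10 genes, 7 were called under the percentile shift, with *Igdcc4*, which had to differ, among them. The count was 3 without the filter on dim probes and 4 at an adjusted p below 0.05, and 4 to 6 when each mouse was left out, lowest without Rbpj +/+_1024. Of the fetal and progenitor genes 15 were called, 7 without the filter and 10 to 14 with a mouse left out, lowest without Rbpj -/-_N5. Of the genes linked to *Zhx2* 6 were called, and 6 to 7 with a mouse left out. Of the paralogues 7 were called (1 higher and 6 lower), 2 without scaling (2 higher and 0 lower), 1 without the filter, 4 at an adjusted p below 0.05, and 3 to 7 with a mouse left out (3 without Rbpj -/-_N3 or Rbpj -/-_N5 and 4 without Rbpj +/+_1024). Of the regulators of the albumin family 7 were called (1 higher and 6 lower), 4 without scaling (3 higher and 1 lower), 2 without the filter, and 4 to 8 with a mouse left out (4 without Rbpj +/+_1024, Rbpj -/-_N3 or Rbpj -/-_N5). Without scaling, the log2 differences of *Gc* (0.16), *Nr5a2* (0.027) and *Nfib* (0.0074) were positive. The causes were not tested, except that the filter and the left-out mice change the number of probes or samples tested. Without Rbpj +/+_1156 and Rbpj -/-_N3 together, 5 of the 10 genes, 15 fetal and progenitor genes, 7 genes linked to *Zhx2*, 6 paralogues and 7 regulators were called.

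Over all genes, 2741 were called higher and 3671 lower under the percentile shift, 3396 and 3244 with the percentile over detected probes, 3115 and 2852 after quantile normalization, 3099 and 2807 in the series matrix, and 7723 and 447 without scaling. Without the filter on dim probes 968 were higher and 674 lower. Of 127 values of the 8 tested genes under the alternatives, 116 moved by less than the spread between mice. This count includes values that could not move. Dropping the filter, asking for detection on all arrays and averaging probes left the differences of these genes unchanged. The spread was that of each gene, so *Gpc3* counted as unmoved in every setting although it was called in 8 of 17. Probes near background, those of *Zhx2*, *Lin28b* and the *Rbpj*+/+ level of *Igdcc4*, are limited by the signal of the arrays. No paired analysis was possible because the mice carry no numbers shared between the genotypes.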
